A study of Mus musculus with 3 samples.

Results

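Glycolysis, lactate and pentose phosphate metabolism was followed through 35 genes in bone marrow nuclear cells (BMNCs) of irradiated mice. The members were chosen by symbol, with earlier results of these data known, and the rule used none of their values. All 35 symbols were found among the 56832 symbols listed in the count tables, and every member had UMIs in each library. The 3 libraries, 1 per group, were BMNCs at day 14 from C57BL/6 mice without irradiation (Control), from mice given 6 Gy of gamma rays and solvent (IR), and from mice given 6 Gy and cannabidiol (IR+CBD). Solvent was soybean oil with 2% DMSO, and cannabidiol (CBD), a non-psychoactive compound of Cannabis, was injected intraperitoneally 4 times at 50 mg/kg before and after irradiation. The label of the third library names only the CBD treatment, and its irradiation is taken from the description of the study. The mice were male according to the methods, their age was not given in the sources used here, and whether Control mice got solvent was not stated. Each library pooled femur cells of 3 mice, sorted as Lin-Kit+, Lin-Kit- and Lin+ cells and remixed at 5:4:1, so shares of cells refer to this mix.

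Glycolysis splits glucose to pyruvate in the cytosol and yields ATP without oxygen. Glucose enters by transporters of the Slc2a family, is phosphorylated by hexokinases, committed by phosphofructokinase, and ends as pyruvate through pyruvate kinase. Lactate dehydrogenase interconverts pyruvate and lactate, and monocarboxylate transporters of the Slc16a family carry lactate across the membrane. The pentose phosphate pathway branches off glucose 6-phosphate. Its oxidative arm makes NADPH, which neutrophils use for the oxidative burst and all cells use against oxidants, and its non-oxidative arm makes ribose for nucleotides. Blood stem cells are known for high glycolysis, and red cells, which lack mitochondria when mature, live on it.

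Cells needed at least 200 genes and at most 5% mitochondrial UMIs, which left 10674 cells (Control), 10345 (IR) and 10273 (IR+CBD), with 194839224, 202361682 and 173466089 UMIs. A UMI (unique molecular identifier) stands for 1 captured RNA molecule. Levels are given as CPM, the UMIs of a gene per 1000000 UMIs of the summed cells. Members were read in all kept cells and in 6 gates set by raw UMIs of lineage genes, none of them a member. The gates were Mpo (myeloid progenitors, at least 5 UMIs), Retnlg (neutrophils, at least 5), Klf1 (erythroid progenitors, at least 2), Cd79a (B lineage, at least 2), Siglech (plasmacytoid dendritic cells, at least 3), and Cd34 together with Adgrl4, at least 1 of each. The Klf1 gate held 586 Control, 1446 IR and 1181 IR+CBD cells, and the Siglech gate only 273, 46 and 79. The other gates held between 1004 and 4072 cells a library. In the Mpo, Retnlg and Klf1 gates the markers of the gate's own lineage had the largest sum of all marker lists in each library. In the other gates neutrophil RNA was also high. The B-lineage markers summed to 10194, 9312 and 10072 CPM in Cd79a cells, and the Retnlg-gate markers, led by S100a8 and S100a9, to 9389, 8241 and 11938 CPM. In Siglech cells the plasmacytoid markers summed to 11226, 10720 and 13362 CPM and the Retnlg-gate markers to 5190, 18278 and 5424 CPM, so the 46 Siglech cells of IR held more neutrophil marker RNA than their own. The cells with Cd34 and Adgrl4 did not read as stem cells: Elane, Prtn3 and the other Mpo-gate markers summed to between 11128 and 13220 CPM there, and the 7 stem markers to between 302 and 385 CPM. Of these cells, 72.3% (Control), 89.2% (IR) and 85.9% (IR+CBD) also passed another gate. Of Mpo cells, 70.9%, 63.6% and 57.0% did. Gates thus share cells, and their values are not independent of each other. Any 2 libraries shared between 35 and 51 cell barcodes. With 1 library per group there is no replicate, no test between groups was made, and intervals cover counting error only. Treatment, pool of mice and library preparation cannot be told apart.

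Promoters of 34 of the 35 members were in the RefSeq table of GRCm38.p6. The 250 bases before each start were searched on both strands for the letters ACGTG, which lie within the sites of the hypoxia factor HIF1 and, as CACGTG, of MYC and related factors. A CACGTG counts once on each strand. Of 51 member promoters, 39.2% held a match, against 16.6% of all 32851 promoters of that length. Promoters rich in CpG hold these letters more often: among the 9646 promoters with at least 14 CpG, the median of the members, the share was 25.0%, and 46.4% among the 28 member promoters at or over it. A match is a description of the letters only. The windows of both lactate dehydrogenase genes are shown because Ldhb and Ldha are set against each other further on, with the glucose transporter Slc2a1 and the lactate exporter Slc16a3. Capitals mark the matches, which numbered 5 in the first Ldha window, 0 in Ldhb, 1 in Slc2a1 and 2 in Slc16a3.
Ldha (GRCm38.p6 chr7:46845554-46845803, plus strand): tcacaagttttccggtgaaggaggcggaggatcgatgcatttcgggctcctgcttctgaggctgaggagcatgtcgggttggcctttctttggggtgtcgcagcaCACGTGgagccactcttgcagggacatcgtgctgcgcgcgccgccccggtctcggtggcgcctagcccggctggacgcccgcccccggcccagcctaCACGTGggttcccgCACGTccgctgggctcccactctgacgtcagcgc
Ldhb (GRCm38.p6 chr6:142507958-142508207, minus strand): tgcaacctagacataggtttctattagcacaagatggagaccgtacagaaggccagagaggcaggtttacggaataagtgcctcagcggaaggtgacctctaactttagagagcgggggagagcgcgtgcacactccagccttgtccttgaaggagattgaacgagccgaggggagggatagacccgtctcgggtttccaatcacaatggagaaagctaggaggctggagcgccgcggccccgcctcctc
Slc2a1 (GRCm38.p6 chr4:119108495-119108744, plus strand): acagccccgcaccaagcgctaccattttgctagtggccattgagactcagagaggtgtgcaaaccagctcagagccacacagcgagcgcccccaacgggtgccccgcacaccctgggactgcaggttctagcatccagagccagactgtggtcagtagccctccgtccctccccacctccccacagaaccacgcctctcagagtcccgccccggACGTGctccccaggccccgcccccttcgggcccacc
Slc16a3 (GRCm38.p6 chr11:120948817-120949066, plus strand): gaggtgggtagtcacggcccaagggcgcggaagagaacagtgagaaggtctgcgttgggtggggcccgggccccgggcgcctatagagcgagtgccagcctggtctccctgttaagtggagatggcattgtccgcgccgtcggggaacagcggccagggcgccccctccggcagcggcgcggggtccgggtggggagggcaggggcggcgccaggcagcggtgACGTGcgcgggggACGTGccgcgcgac

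Slc16a3, Slc2a3 and the NADPH-making enzymes were highest in neutrophils. Of the 35 members, 28 had their highest level in the same gate in all 3 libraries, and for 10 of them that gate was Retnlg. Slc16a3, the exporter that clears lactate from glycolytic cells, stood at 113 (Control), 109 (IR) and 100 (IR+CBD) CPM in the Retnlg gate. Its level there was 13.7, 16.3 and 11.1 times that of the next gate, Mpo. In no other gate did it pass 9.03 CPM. Slc2a3, a high-affinity glucose transporter, had 228, 233 and 261 CPM in Retnlg cells, which is 5.21, 4.80 and 5.46 times the next gate. G6pdx, which starts the oxidative pentose phosphate arm, had 177, 161 and 157 CPM, 3.94, 4.16 and 4.25 times the Mpo gate. Pgd, the next NADPH-making enzyme, had 298, 307 and 313 CPM. Pfkfb4, which sets fructose 2,6-bisphosphate, the activator of phosphofructokinase, had 51.4, 53.7 and 54.5 CPM, against at most 16.2 CPM in any other gate. Hk3 at 126, 128 and 129 CPM, Pkm, Tkt, Taldo1 and Slc2a1 were the other members highest in Retnlg cells. For Slc16a3, Slc2a3, G6pdx and Pfkfb4 the 3 libraries lay closer to each other in Retnlg cells than to any other gate. The 8 marker transcripts of the Retnlg gate took between 250301 and 262828 CPM there. Pgls, the lactonase between G6pdx and Pgd, went the other way, with its lowest level in Retnlg cells (212, 215 and 215 CPM) and its highest in Siglech cells (813, 838 and 882 CPM).

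**Figure D1:**
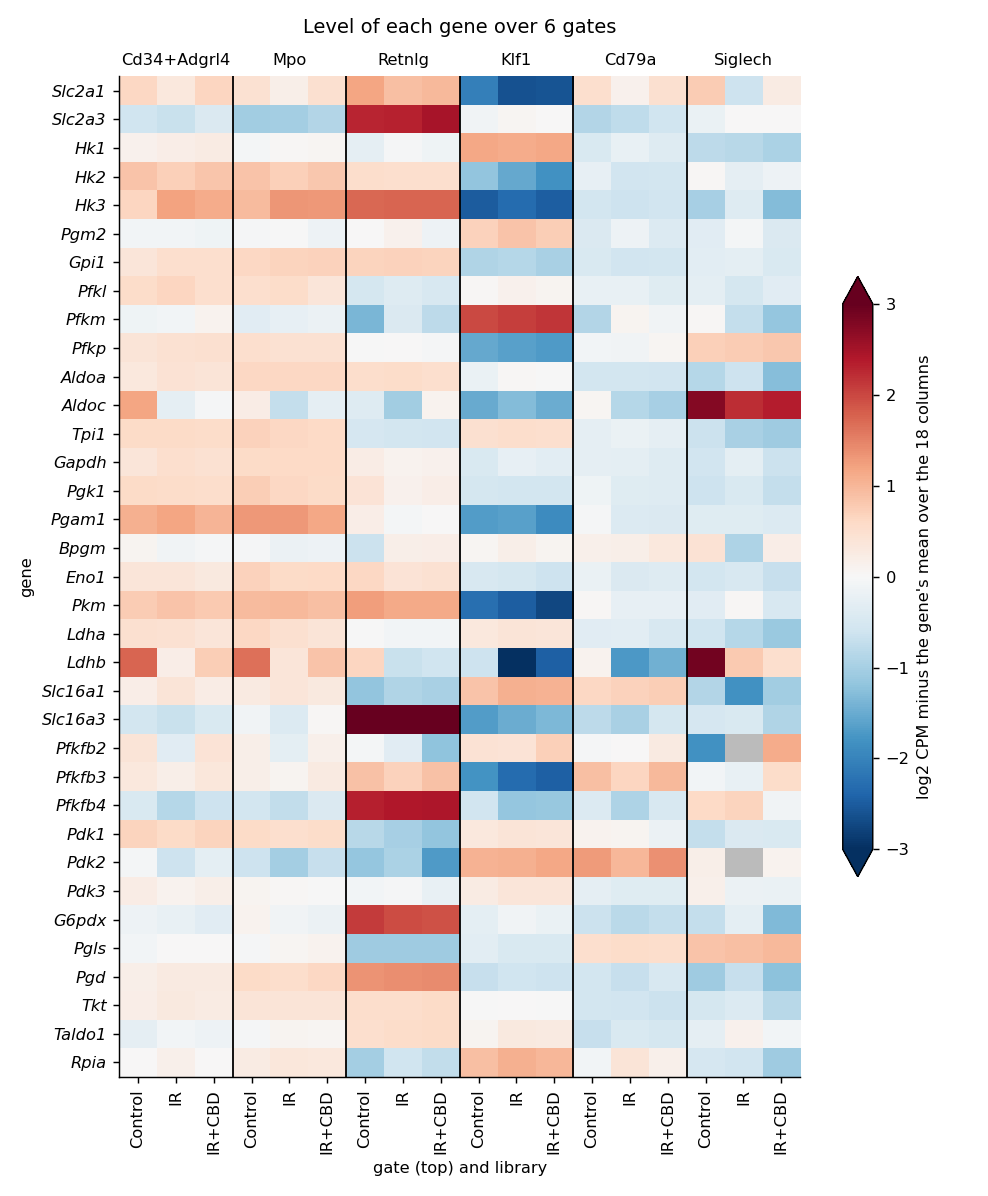
Heat map of the 35 genes (rows, grouped by role) over 6 gates with 3 libraries each (columns). Colour is log2 CPM minus the gene's mean over the 18 columns, cut at 3 in either direction, and grey marks 0 UMIs (Pfkfb2 and Pdk2 in the 46 Siglech cells of IR). Slc2a3, Slc16a3, Pfkfb4 and G6pdx stand out in the Retnlg gate, Pfkm and Hk1 in the Klf1 gate, and the Control column of Ldhb is the highest of its gate in all 6 gates.

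Erythroid progenitors carried another set of isoforms. Pfkm, the muscle-type phosphofructokinase that red cells also use, had 31.4, 33.6 and 35.1 CPM in the Klf1 gate, 3.84, 3.95 and 4.11 times the next gate. Hk1, the hexokinase of red cells, had 122, 120 and 123 CPM there, 2.03, 1.89 and 1.88 times the next gate, and its whole order over the 6 gates was the same in the 3 libraries. Rpia, which makes ribose 5-phosphate, was highest there at 117, 132 and 124 CPM, as were Slc16a1, Pgm2 and Pdk3. Klf1 cells were also the lowest gate for 12 members in all 3 libraries. Pkm had 58.5, 50.3 and 42.0 CPM in them, and the Retnlg gate held 11.4, 12.1 and 14.7 times as much. Pklr, the pyruvate kinase of red cells and no member, had 50.04, 51.1 and 53.5 CPM in Klf1 cells. Slc2a1 was lowest there as well, at 3.61, 2.44 and 2.47 CPM.

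**Figure D2:**
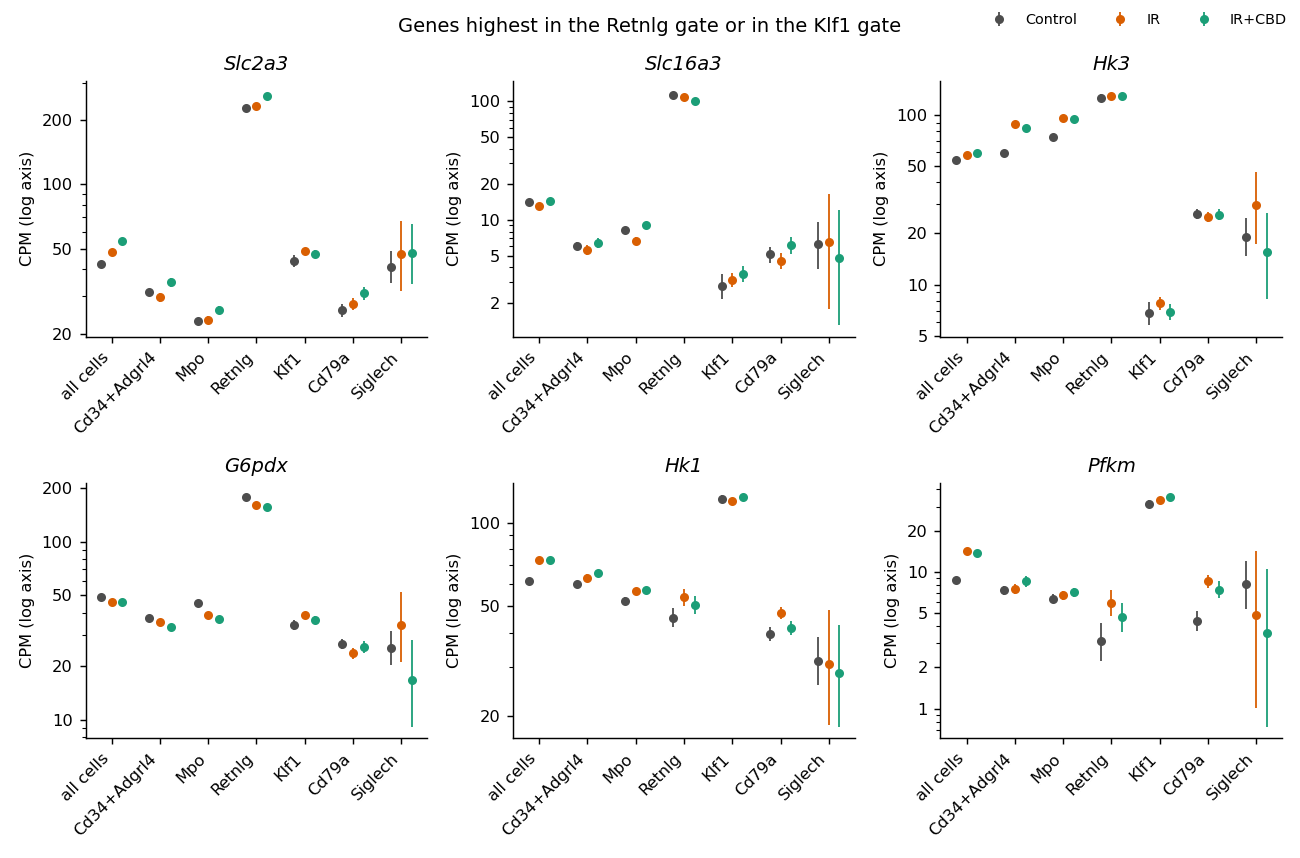
CPM (log axis) of 6 genes in all kept cells and in each gate, with 1 point per library and exact Poisson 95% intervals that cover counting error only. Slc2a3, Slc16a3, Hk3 and G6pdx peak in the Retnlg gate in each library, and Hk1 and Pfkm in the Klf1 gate, where Hk1 lies between 120 and 123 CPM.

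Within families the gates used different paralogs. Shares of UMIs are compared here across gates, not levels between genes. Of hexokinase UMIs, Hk1 took 84.0% (Control), 85.3% (IR) and 87.6% (IR+CBD) in Klf1 cells but 20.1%, 22.9% and 21.7% in Retnlg cells, where Hk3 took 55.9%, 54.5% and 55.6%. Of phosphofructokinase UMIs, Pfkp, the platelet type, held between 53.8% and 60.3% in all kept cells. In Klf1 cells Pfkp held 24.8%, 22.5% and 21.4%, and Pfkm 36.3%, 37.4% and 39.5%. Pfkl was as common there, with 821, 2288 and 1673 UMIs against 764, 2130 and 1689 of Pfkm. Slc16a3 made up 88.1%, 85.5% and 85.0% of Slc16a1 and Slc16a3 UMIs in Retnlg cells, and at most 4.71% in Klf1 cells. Slc16a1, which also imports lactate, was the main one in Klf1, Cd79a, Mpo and Cd34 with Adgrl4 cells.

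Several core enzymes were highest in myeloid progenitors, some by little. In the Mpo gate Aldoa, Tpi1, Gapdh, Pgk1, Pgam1, Eno1 and Ldha had their highest level in each library. Ldha was there at 1.09 (Control), 1.01 (IR) and 1.003 (IR+CBD) times the next gate, and Tpi1 at 1.10, 1.03 and 1.04 times. Gpi1 had no highest gate shared by the libraries. Gapdh had 2053, 2085 and 2070 CPM there, and Pgam1, phosphoglycerate mutase, 708, 703 and 638 CPM against 89.2, 92.4 and 77.1 CPM in Klf1 cells. The summed level of the 35 members was 8391, 8366 and 8233 CPM in Mpo cells and 6764, 6519 and 6513 CPM over all kept cells. Pfkp, at 102, 106 and 108 CPM, and Aldoc were highest in Siglech cells, but Aldoc had only 15, 2 and 3 UMIs there. Gates differ in depth, with a median of 33196 UMIs a cell in Mpo cells and 4042 in Cd79a cells of Control, and in the share of cycling cells.

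Many members differed between cycling and other cells of the B lineage. Cells with at least 2 UMIs of Mki67 and of Top2a were set against cells with none of either. In the Cd79a gate, 20 of the 32 members with at least 100 UMIs in every library were at least 25% higher in cycling cells in all 3 libraries, against 30.5% of the 10269 genes with as many UMIs, and 4 were lower, against 30.5%. Ldha was 3.93 times higher (Control), 4.99 (IR) and 4.01 (IR+CBD). Gapdh was 3.97, 3.44 and 3.35 times higher, and Tpi1 3.09, 3.98 and 3.63 times. Slc2a1, Pfkfb3, Bpgm and Pdk2 were lower in cycling B-lineage cells in each library, Slc2a1 at 0.690, 0.581 and 0.629 times and Pdk2, a kinase that inhibits pyruvate dehydrogenase, at 0.348, 0.231 and 0.440 times. Of all Cd79a cells, 12.6% (Control), 12.2% (IR) and 10.4% (IR+CBD) were predicted doublets, and 10.2%, 8.99% and 9.81% passed another gate. The part of such cells in the Cd79a values was not tested. In the Retnlg gate 8 of 28 members were higher in cycling cells and 9 lower, against 57.9% and 19.2% of 7254 genes. Slc16a1 was 10.9, 31.8 and 14.5 times higher in them, and Rpia 5.51, 5.07 and 5.89 times. The cycling Retnlg cells numbered only 138, 117 and 139, and 16.8%, 18.4% and 19.1% of all Retnlg cells were predicted doublets. The part of doublets in these values was not tested. Slc16a3 was at 0.241, 0.173 and 0.244 times, Slc2a3 at 0.269, 0.313 and 0.278 times and Pfkfb4 at 0.380, 0.317 and 0.365 times the level of noncycling Retnlg cells. In Mpo cells 1 of 32 members was higher in cycling cells by this measure and 0 were lower, against 9.66% and 4.51% of 11853 genes.

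The first question was how members differed 14 days after irradiation. As a set they lay with other genes: over all kept cells the median log2 ratio of IR over Control was -0.05 for the members and -0.05 for all 17981 genes with at least 100 UMIs. A gene was counted as higher or lower where the higher of its 2 levels exceeded the lower by at least 25%. Of 35 members 2 were higher and 5 lower than Control, where 9.55% of all genes were higher and 19.3% lower. In the Mpo gate 1 was higher and 4 lower of 35, against 7.26% and 10.7% of all genes. In cells with Cd34 and Adgrl4 1 was higher and 5 lower of 35, against 6.75% and 16.1%. In Klf1 cells 0 were higher and 5 lower of 34, against 6.57% and 12.1%. In Cd79a cells 2 were higher and 5 lower of 33, against 9.17% and 11.5%. In Retnlg cells 3 were higher and 1 lower of 32, against 10.2% and 10.1%. These shares lie near the background, so the counts do not set the members apart from other genes. Some counts depended on the cells taken: in noncycling cells 17 members were higher in cells with Cd34 and Adgrl4 and 10 in Mpo cells, and 0 were lower in Klf1 cells. No share of all genes is given for noncycling cells, so these counts cannot be set against a background. They rest on 394 Control and 129 IR cells with Cd34 and Adgrl4, 197 and 208 Mpo cells, and 22 and 32 Klf1 cells.

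**Figure D3:**
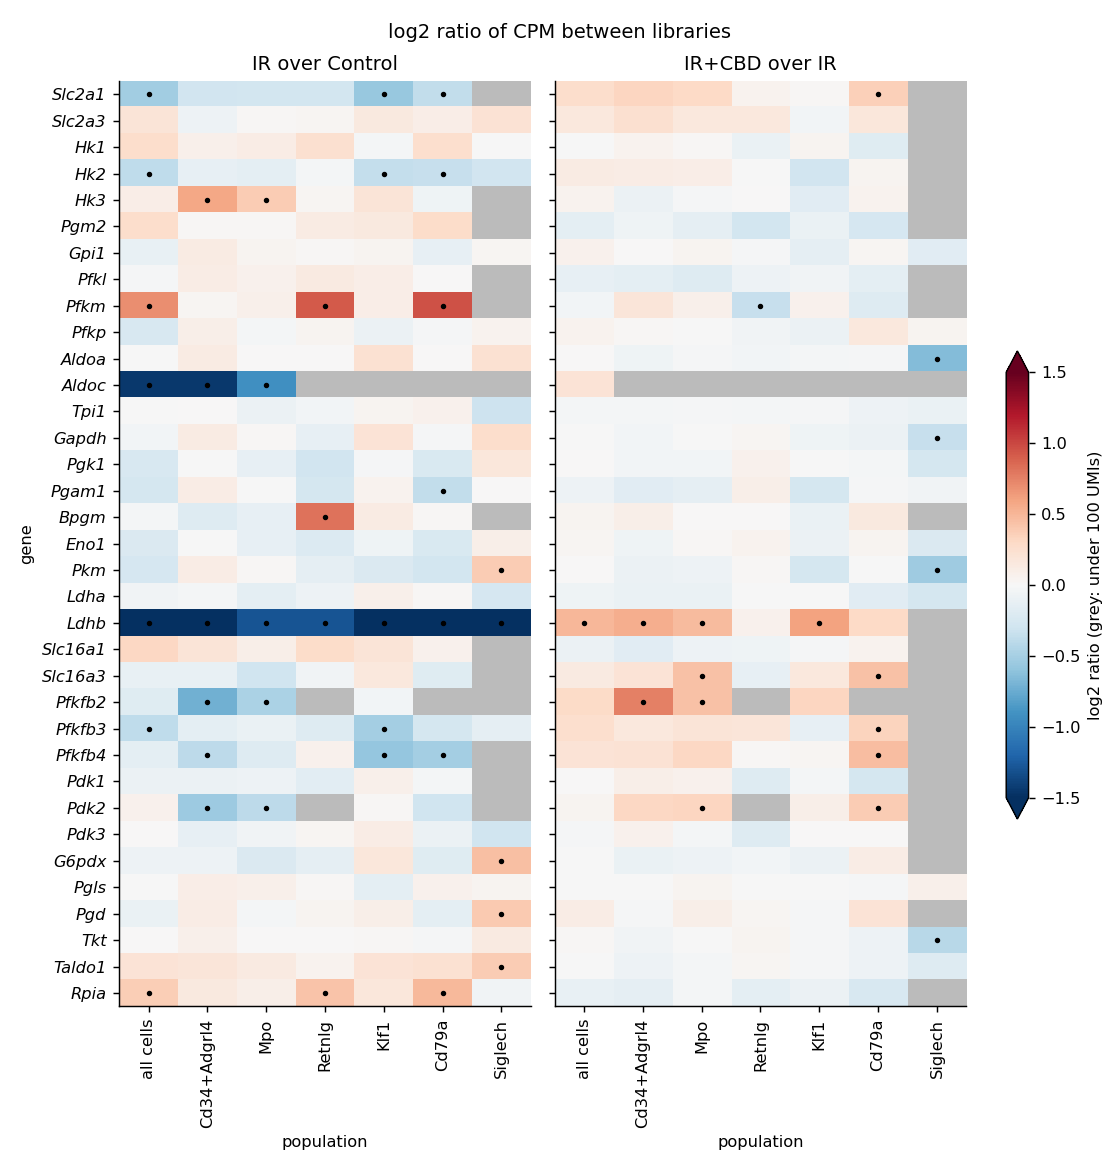
log2 ratio of CPM for the 35 genes (rows) in all kept cells and 6 gates (columns), IR over Control on the left and IR+CBD over IR on the right. Colour is cut at 1.5 in either direction, grey marks genes under 100 UMIs in the compared libraries, and black dots mark differences of at least 25% of the lower level. Ldhb is dark blue in all 7 columns on the left and red or pale red in the 6 columns with enough UMIs on the right.

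Ldhb was lower in IR than in Control in every gate, while its partner Ldha stayed within the 25% threshold in that comparison. Ldhb codes for the heart-type subunit of lactate dehydrogenase, Ldha for the muscle-type subunit, and both join into tetramers. Over all kept cells Ldhb had 19.4 (Control), 5.79 (IR) and 8.17 (IR+CBD) CPM, so IR held 0.298 times the Control level (95% interval 0.279 to 0.319). Control lay above both irradiated libraries, whose intervals also did not overlap. In Mpo cells it had 23.9, 9.76 and 13.6 CPM, a ratio of 0.409 (0.379 to 0.441) for IR over Control. In Klf1 cells, its lowest gate, it had 4.93, 0.915 and 1.39 CPM, a ratio of 0.186 (0.133 to 0.256). The order was the same in Cd79a cells, where Ldhb had 8.13, 2.28 and 2.79 CPM and a ratio of 0.280 (0.216 to 0.361). In Retnlg cells it had 11.8, 4.79 and 5.00 CPM, and a ratio of 0.407 (0.303 to 0.542). In cells with Cd34 and Adgrl4 it had 25.4, 8.69 and 12.7 CPM, and a ratio of 0.343 (0.312 to 0.375). IR was thus below Control in all 6 gates, the sixth being Siglech with 180 UMIs in Control and 8 in IR. Among all genes tested, the Ldhb ratio lay at percentile 0.740 over all kept cells and at 0.0324 in Klf1 cells, counted from the lowest. Ldha had 581, 561 and 538 CPM over all kept cells, and its ratio of IR over Control stayed between 0.837 in Siglech cells and 1.05 in Klf1 cells. Ldhb accordingly made up 3.23% of lactate dehydrogenase UMIs (Control), 1.02% (IR) and 1.498% (IR+CBD). Under every alternative tried, the Ldhb ratio stayed between 0.183 and 0.366 over all kept cells and between 0.284 and 0.475 in Mpo cells. In Klf1, Cd79a and Retnlg cells that passed no other gate, Ldhb had under 100 UMIs in Control and IR together. The whole Cd79a gate held 257 and 82, and 10.2% and 8.99% of its cells passed another gate. With predicted doublets removed, Ldhb was also under 100 UMIs in Klf1 and Cd79a cells. The part of shared cells and doublets in the ratios of these gates was not tested. Stem markers moved with Ldhb in cells with Cd34 and Adgrl4: their summed level was 385, 302 and 338 CPM, with Hlf at 49.3, 21.5 and 27.7 CPM. Their part in the Ldhb values of that gate was not tested. In Klf1 and Cd79a cells the same markers summed to 138, 109 and 113 CPM and to 126, 128 and 89.4 CPM.

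**Figure D4:**
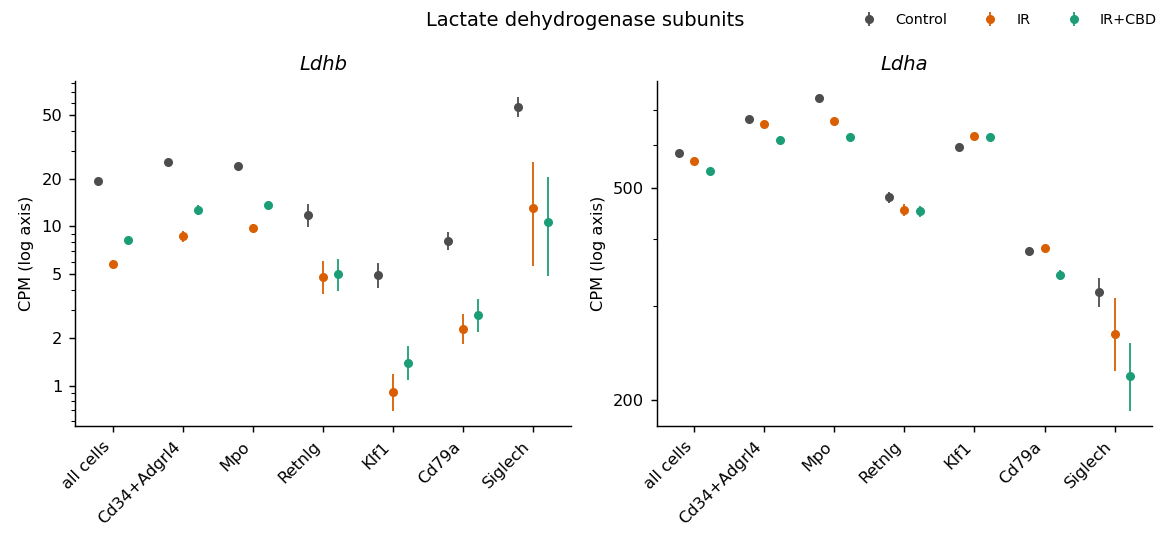
CPM (log axis, with its own range in each panel) of Ldhb and Ldha in all kept cells and each gate, 1 point per library with exact Poisson 95% intervals for counting error. The Control point of Ldhb lies above the IR point in all 7 positions, from 56.6 against 13.0 CPM in Siglech cells to 4.93 against 0.915 CPM in Klf1 cells, while Ldha of Control and IR lies within the 25% threshold in each position (318 against 266 CPM in Siglech cells).

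Slc2a1, Pfkfb3 and Hk2 were lower in IR, while the other glucose transporter, Slc2a3, had 42.5, 48.4 and 54.1 CPM. Slc2a1, the broadly expressed glucose transporter, had 20.6 (Control), 14.3 (IR) and 17.2 (IR+CBD) CPM over all kept cells, a ratio of 0.696 (0.663 to 0.730) for IR over Control. The ratio was below 1 in all 6 gates, at 0.677 (0.518 to 0.889) in Klf1 cells and 0.776 (0.694 to 0.868) in Cd79a cells, but past the 25% threshold only in these 2 of the 5 gates with enough UMIs. With cells of each library weighted by the Control mix of gates, the ratio over all kept cells was 0.786. Pfkfb3, which raises fructose 2,6-bisphosphate, had 58.6, 44.9 and 53.4 CPM, a ratio of 0.766 (0.745 to 0.788). Hk2, the inducible hexokinase, had 55.4, 42.5 and 46.3 CPM, a ratio of 0.767 (0.746 to 0.789). Hk2 and Pfkfb3 are lowest in Klf1 cells, and that gate held 5.49% of kept cells in Control and 14.0% in IR. Weighted by the Control mix, their ratios over all kept cells were 0.914 and 0.871. Within Klf1 cells Pfkfb3 was at 0.703 (0.614 to 0.806), Pfkfb4 at 0.667 (0.550 to 0.812) and Hk2 at 0.784 (0.695 to 0.886) times Control, all at low levels of at most 16.4 CPM. In Cd79a cells Pfkfb4 had 7.65, 5.36 and 7.37 CPM, a ratio of 0.701 (0.577 to 0.850), and Pgam1 278, 216 and 213 CPM, a ratio of 0.775 (0.752 to 0.799). Pgam1 is one of the genes high in cycling B-lineage cells, and 28.6% of Cd79a cells were cycling (Control), 21.8% (IR) and 22.05% (IR+CBD). Without cycling cells the Pgam1 ratio was 0.824. Aldoc, a minor aldolase, had 1.31, 0.479 and 0.553 CPM over all kept cells, a ratio of 0.366 (0.287 to 0.464), and 0.523 (0.351 to 0.767) in Mpo cells. Pdk2 and Pfkfb2, both under 3 CPM in myeloid progenitors, were lower in IR in the Mpo gate and in cells with Cd34 and Adgrl4, at ratios between 0.603 and 0.762.

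Hk3 and Rpia were higher in IR, each in some of the gates. Hk3, a hexokinase of myeloid cells, had 73.5 (Control), 95.5 (IR) and 94.1 (IR+CBD) CPM in Mpo cells, a ratio of 1.30 (1.26 to 1.34). In cells with Cd34 and Adgrl4 it had 59.5, 88.7 and 83.1 CPM, a ratio of 1.49 (1.44 to 1.55). Both irradiated libraries lay above Control in these gates, and in Retnlg cells, where Hk3 is highest, the 3 libraries were within 3 CPM of each other. The ratio in Mpo cells was under the threshold in cells that passed no other gate (1.17), in noncycling cells (1.17) and after thinning to 5000 UMIs a cell (1.249). Rpia had 58.9, 82.1 and 69.4 CPM in Cd79a cells, a ratio of 1.40 (1.32 to 1.48), and 30.8, 41.7 and 37.6 CPM in Retnlg cells, a ratio of 1.35 (1.19 to 1.54). Taldo1, transaldolase of the same non-oxidative arm, was over Control in all 6 gates with ratios from 1.04 to 1.30, past the threshold only in the 46 Siglech cells of IR.

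Pfkm and Bpgm were higher in IR in gates where their Control level was low, and erythroid RNA moved with them. Pfkm had 4.36 (Control), 8.50 (IR) and 7.40 (IR+CBD) CPM in Cd79a cells, a ratio of 1.95 (1.59 to 2.40), and 3.11, 5.93 and 4.66 CPM in Retnlg cells, a ratio of 1.91 (1.30 to 2.83). Bpgm, which makes the 2,3-bisphosphoglycerate of red cells, had 7.97, 14.1 and 14.2 CPM in Retnlg cells, a ratio of 1.77 (1.39 to 2.26). In Klf1 cells Bpgm had 12.9, 14.0 and 13.1 CPM, no more than Retnlg cells of IR and IR+CBD. The 10 Klf1-gate markers summed to 604, 1570 and 1253 CPM in Cd79a cells and to 661, 2806 and 2383 CPM in Retnlg cells. Among them Hba-a1, a hemoglobin gene, had 198, 1179 and 1013 CPM in Retnlg cells and Car2 165, 513 and 364 CPM in Cd79a cells. Pklr, the red-cell pyruvate kinase, had 1.45, 8.23 and 6.59 CPM in Cd79a cells. In Cd79a cells that passed no other gate the Pfkm ratio was 0.963, while the Rpia ratio there was 1.40. In Retnlg cells that passed no other gate the Bpgm ratio was 2.23. The part of erythroid RNA in the values of Pfkm and Bpgm was not tested. Over all kept cells Pfkm had 8.70, 14.1 and 13.7 CPM, in libraries of which 5.49%, 14.0% and 11.5% of cells passed the Klf1 gate, and within that gate its ratio was 1.07.

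**Figure D5:**
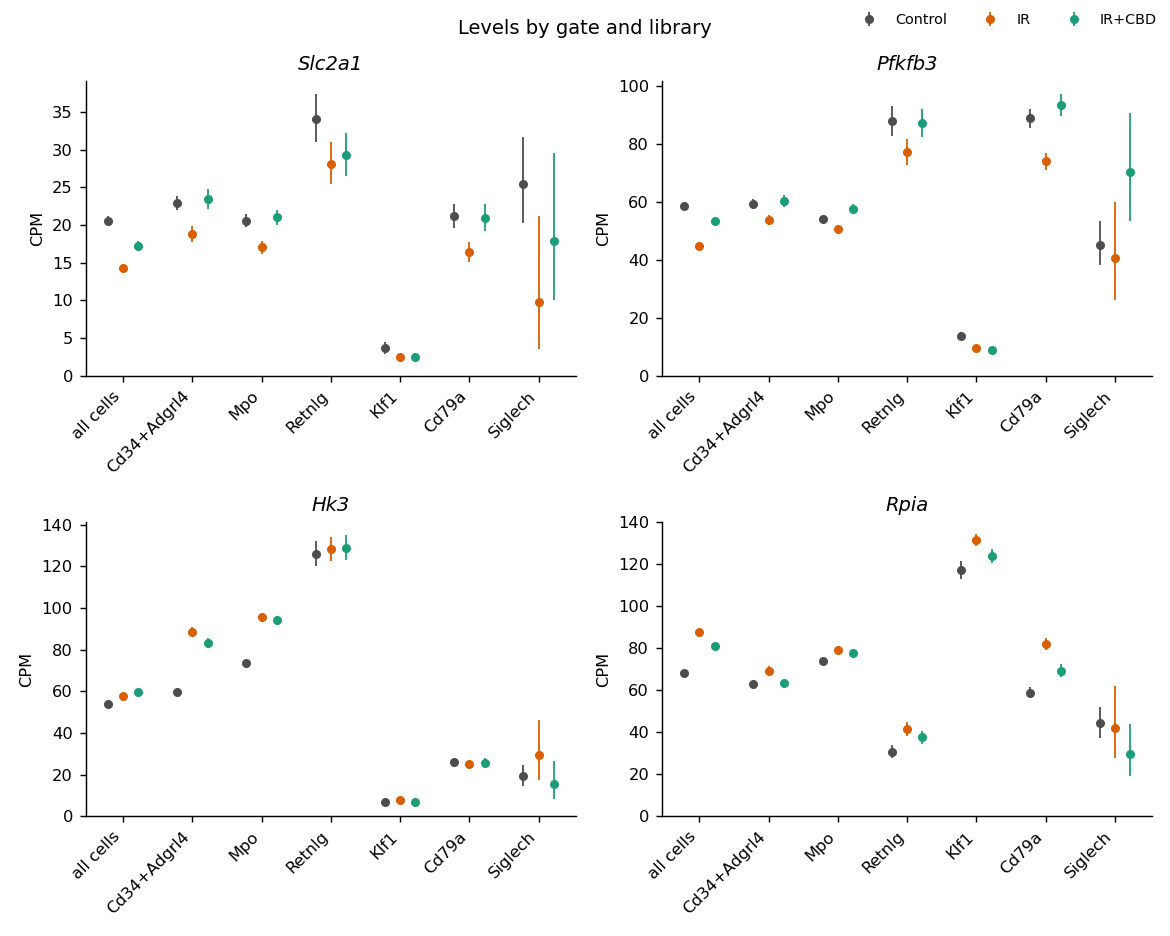
CPM (linear axis from 0) of Slc2a1, Pfkfb3, Hk3 and Rpia in all kept cells and each gate, 1 point per library with exact Poisson 95% intervals for counting error. IR lies below Control and IR+CBD for Slc2a1 and Pfkfb3 in Cd79a cells (16.4 against 21.2 and 21.0 CPM, and 74.0 against 88.9 and 93.5 CPM), and Hk3 of IR and IR+CBD lies above Control in Mpo cells.

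The second question was how CBD-treated mice differed from irradiated mice given solvent. Of 35 members 1 was higher in IR+CBD than in IR over all kept cells and 0 were lower, where 6.73% of all genes were higher and 5.93% lower. The numbers were 4 and 0 of 34 in Mpo cells (6.89% and 4.89% of all genes), 2 and 0 of 34 in cells with Cd34 and Adgrl4 (7.06% and 4.84%), and 1 and 0 of 34 in Klf1 cells (2.54% and 7.88%). They were 5 and 0 of 33 in Cd79a cells (7.87% and 6.26%) and 0 and 1 of 32 in Retnlg cells (4.54% and 8.43%). The median log2 ratio of the members lay between -0.02 and 0.01 in these populations. Both comparisons use the same IR library, so a gene low in that library alone is low in one ratio and high in the other.

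Ldhb was the member higher over all kept cells, at 1.41 times IR (1.31 to 1.53). Its ratio was 1.39 (1.27 to 1.52) in Mpo cells, 1.46 (1.30 to 1.63) in cells with Cd34 and Adgrl4 and 1.52 (1.05 to 2.20) in Klf1 cells, and 1.04 in Retnlg cells. In Cd79a cells it was 1.22 (0.880 to 1.70), under the threshold, and the Siglech gate held only 8 and 9 UMIs. In Mpo cells it was 1.24 in those that passed no other gate, under the threshold, and 2.30 in noncycling cells. IR+CBD stayed below Control in every gate, at 0.421 times (0.396 to 0.448) over all kept cells. The ratio over IR in cells with Cd34 and Adgrl4 that passed no other gate was 0.965.

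In B-lineage cells Slc2a1, Pfkfb3 and Pfkfb4 were higher in IR+CBD than in IR and near or above Control. Slc2a1 had 21.2 (Control), 16.4 (IR) and 21.0 (IR+CBD) CPM, a ratio of 1.28 (1.13 to 1.44) for IR+CBD over IR. Pfkfb3 had 88.9, 74.0 and 93.5 CPM, a ratio of 1.26 (1.20 to 1.34). Pfkfb4 had 7.65, 5.36 and 7.37 CPM, a ratio of 1.37 (1.12 to 1.69). Neutrophil RNA moved with these genes too, with Retnlg-gate markers at 9389, 8241 and 11938 CPM in Cd79a cells. In Cd79a cells that passed no other gate the ratios were 1.18 for Slc2a1, 1.28 for Pfkfb3 and 1.15 for Pfkfb4, so that only Pfkfb3 passed the threshold there. Over the alternatives these ratios ran from 1.15 to 1.28, from 1.19 to 1.29 and from 1.15 to 1.47. Slc16a3 was at 1.36 (1.09 to 1.70) times IR in Cd79a cells and 1.35 (1.22 to 1.51) times in Mpo cells. Neutrophil RNA moved with it as well: besides the sums in Cd79a cells, the Retnlg-gate markers summed to 7141, 6036 and 7406 CPM in Mpo cells. The part of that RNA in the values of these genes was not tested. Pdk2 in Cd79a cells was at 1.30 (1.03 to 1.64) times IR, and at 0.949 without cycling cells. Pfkfb2, the isoform activated by kinases in heart and other tissues, had 1.43, 0.863 and 1.46 CPM in cells with Cd34 and Adgrl4, a ratio of 1.69 (1.19 to 2.40) on few UMIs. Hk3 and Taldo1, higher in IR than in Control, stood within 10% of IR in IR+CBD in Mpo cells, and Rpia lay between Control and IR in Mpo, Retnlg, Klf1 and Cd79a cells.

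IR+CBD was also set against Control, a comparison that shares its libraries with both others. Over all kept cells 2 of 35 members were higher and 3 lower, where 7.95% of all genes were higher and 16.1% lower. The counts were 1 and 2 of 35 in Mpo cells (8.02% and 8.67% of all genes), 1 and 2 of 35 in cells with Cd34 and Adgrl4 (5.9% and 11.5%), 1 and 2 of 33 in Cd79a cells (8.38% and 8.38%) and 2 and 2 of 32 in Retnlg cells (6.92% and 9.64%). In Klf1 cells 0 of 34 were higher and 6 lower (3.85% and 14.5%), and in Siglech cells 1 of 22 was higher and 6 lower (16% and 13.9%). Slc2a3 was higher over all kept cells, at 1.27 times Control, but at 1.18 with the Control mix of gates and 1.19 with means of per-cell CPM. It is highest in Retnlg cells, which made up 9.41% of kept cells in Control and 11.8% in IR+CBD. The 6 lower in Klf1 cells were Ldhb, Hk2, Pfkfb3, Pfkfb4, Slc2a1 and Pkm, and apart from Ldhb their ratios lay between 0.643 and 0.718. Pkm had 58.5, 50.3 and 42.0 CPM there, and in that gate was counted as lower in this comparison alone.

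In Siglech cells 22 members had enough UMIs for IR over Control, of which Pkm, G6pdx, Pgd and Taldo1 were higher and Ldhb lower (all genes 13.6% and 21%). For IR+CBD over IR 13 members did, and Aldoa, Gapdh, Pkm and Tkt were lower (all genes 21.8% and 10.4%). These ratios rest on 46 cells of IR, which held the neutrophil RNA given above, and Pkm fell on the other side of 1 when doublets were removed. Pdk2 and Pfkfb2 had 0 UMIs in these cells, where the floor of 3 counts is 4.87 CPM.

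Other genes of the pathways were read from a list of 46 enzymes and transporters and 10 regulators. For IR over Control in all kept cells 37 of the 46 had enough UMIs, 5 higher and 9 lower. Of all genes 9.55% were higher and 19.3% lower. Pklr had 6.57, 16.4 and 15.4 CPM and Minpp1, a phosphatase that also acts on 2,3-bisphosphoglycerate, 58.9, 104 and 93.7 CPM, and both are highest in Klf1 cells, where their ratios were 1.02 and 1.08. Bsg, the chaperone of Slc16a1 and Slc16a3, had 213, 275 and 249 CPM, and Emb, another such chaperone, 303, 230 and 208 CPM. In Mpo cells 4 of 33 were higher and 0 lower, against 7.26% and 10.7% of all genes. Fbp1, the gluconeogenic bisphosphatase that opposes phosphofructokinase, was among the 4 with 4.88, 8.21 and 11.2 CPM, and it was higher again in IR+CBD. Of 9 regulators with enough UMIs 2 were lower over all kept cells, where 19.3% of all genes were. The 2 were Hif1a, the hypoxia-inducible factor, at 49.9, 38.8 and 42.2 CPM and Egln3, an oxygen sensor that marks it for decay, at 17.4, 13.2 and 15.6 CPM. Within gates the Hif1a ratio of IR over Control lay between 0.799 and 0.975. As a comparison of energy pathways, 77 of 81 nuclear respiratory chain genes had enough UMIs. Their median log2 ratio of IR over Control was 0.09 over all kept cells and 0.10 in Cd79a cells, where 72 lay above 0 and 5 below, against 13 and 20 of the glycolytic members. Of all genes in that gate 44.9% lay above 0, with a median of -0.02. In Klf1 cells 54 chain genes lay above 0 and 23 below, against 22 and 12 members. The numbers were 48 and 29 against 15 and 20 in Mpo cells, and 45 and 32 against 18 and 14 in Retnlg cells. With Cd34 and Adgrl4 they were 66 and 11 against 18 and 17. Of all genes between 41% and 47.7% lay above 0 in these gates. For IR+CBD over IR in Cd79a cells, 4 chain genes lay above 0 and 73 below, against 17 and 16 members. Of all genes 54.8% lay above 0 there. The direction differed between gates: in Klf1 cells the numbers were 59 and 18 against 9 and 25 (all genes 44.1%). They were 38 and 39 against 17 and 17 in Mpo cells (51.1%), and 23 and 54 against 15 and 17 in Retnlg cells (40.9%). With Cd34 and Adgrl4 they were 28 and 49 against 16 and 18 (54.4%).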

How the data were processed

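Single-cell 3′ RNA-seq of 3 libraries, 1 per group, was analysed. The authors deposited UMI counts per gene and cell barcode, made with Cell Ranger against GRCm39, with no normalization. The submitters' processing notes name version 4.0 and the file headers 7.0.1, which counts intronic reads by default and would raise genes with long introns. Cells with at least 200 genes and at most 5% mitochondrial UMIs were kept, as in the methods, and doublets were kept except in an alternative that removed those predicted by Scrublet. Counts were summed per library and gate. Intervals at 95% are exact, Poisson for CPM and conditional binomial for ratios, and cover counting error only. Differences of at least 25% of the lower level with at least 100 UMIs in the compared libraries were counted, log2 ratios used 0.5 UMI as pseudocount, and the same was done for all genes as background. With 1 library per group, no test was possible. Members and lists were chosen with earlier results of these data known. In each comparison up to 8 counted members were named by the interval bound nearest to 1, plus, for levels, any with the same highest gate in all 3 libraries. The 2 rows named Aldoa were summed. Pseudogene copies of members had few UMIs, Eno1b at most 353 in a library, and reads shared with copies may have been lost. The counting step was tested on simulated data. Alternatives covered cell filters, doublets, scaling, per-cell means, gate minimums, gate overlap, cycling cells, thinning to 5000 UMIs and the Control mix of gates. Python 3.11.15, numpy 2.4.6, scipy 1.17.1, pandas 2.3.3, scanpy 1.11.5 and matplotlib 3.10.9 were used. Promoters came from RefSeq tables of GRCm38.p6, a build other than that of the counts, and were matched by symbol only.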

Additional observations from a re-analysis of the deposited data

How the results depend on the processing

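No paired analysis was possible because each group is 1 library. Of the values of single members under alternatives, 5760 kept their direction and side of the threshold, and 678 stayed under it but changed direction. Another 205 passed it only under the alternative, 88 no longer passed it, 44 passed it in the other direction and 11 that had passed it reversed. The Ldhb ratio of IR over Control stayed under 1 in every alternative that left it at least 100 UMIs, from 0.155 in Klf1 cells to 0.482 in Retnlg cells. Without cycling cells, with doublets removed or in cells of exactly 1 gate it had too few UMIs in Klf1 and Cd79a cells, after thinning in Klf1 cells, and without cycling cells or in cells of exactly 1 gate in Retnlg cells.

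For IR over Control the median log2 ratio of the members over all kept cells was 0.00387 with median-of-ratios scaling, 0.0037 with means of per-cell CPM and 0.12 in noncycling cells. In noncycling cells it was 0.26 in Mpo, 0.23 in Klf1 and 0.57 in Cd34 with Adgrl4 cells, and in the last it was 0.14 with per-cell means and 0.12 in cells of exactly 1 gate. In Siglech cells it was -0.26 after thinning. Over all kept cells 1 member was lower in noncycling cells, and with the Control mix of gates 3 were lower and 1 higher. For IR+CBD over IR, 2 were higher with doublets removed, and the median was 0.0615 in noncycling cells and -0.0161 with the Control mix. It was -0.00814 in Klf1 and 0.0306 in Retnlg cells with median-of-ratios scaling, -0.28 in Klf1 and -0.15 in Cd34 with Adgrl4 cells without cycling cells, and in Siglech cells -0.0118 with per-cell means, -0.66 with doubled gate minimums and -0.0346 after thinning.

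Reversed log2 ratios of IR over Control were Pfkm at -0.23 in noncycling cells of all kept cells and -0.0545 in Cd79a cells of exactly 1 gate, and in Siglech cells Pkm at -0.0829 with doublets removed and -0.26 after thinning and Pgd at -0.29 with doubled gate minimums. For IR+CBD over IR, Pdk2 was at -0.0754 in noncycling Cd79a cells and Ldhb at -0.0508 in Cd34 with Adgrl4 cells of exactly 1 gate. For IR+CBD over Control in noncycling cells, Pfkm was at -0.30 and Pgam1 at 0.43 over all kept cells and Pgam1 at 0.0503 in Cd79a cells, and Pdk1 was at 0.0211 in Retnlg cells with per-cell means. The cause of these differences was not tested. Depth limits the Siglech gate most, with 46 cells in IR.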
